A study of Homo sapiens with 52 samples.

Results

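The neurite and soma fractions of human i3Neurons with TDP-43 knocked down were compared with each other. The libraries were chosen by their titles, as neurite samples 1 to 5 and soma samples 1 to 4 of the knockdown arm of the TDP-43 experiment. They are 9 of the 52 libraries of the study, and no control library entered this comparison. Soma sample 5 of the same arm held 541 counts and was left out. i3Neurons are neurons that form from the induced pluripotent stem cell line WTC11 after doxycycline switches on a neurogenin-2 transgene. All groups used here shared this line and CRISPR interference, a method that shuts off transcription of a gene through a guide RNA and a Cas9 that no longer cuts. Cells with a guide were selected before they were made into neurons. Knockdown cells carried a guide against TARDBP, the gene of TDP-43. Control cells carried a non-targeting guide, and their 10 libraries (5 neurite and 5 soma) enter only where controls are named. Neurons were moved on day 3 to coated culture inserts with pores of 1 µm, small enough to hold back cell bodies while neurites grow through, and harvest was on day 17. The soma side also holds the neurites that did not cross. Each library was prepared with version 3 of a total RNA kit from an input of 10 ng. The labels name neither the guide sequence, nor clones, nor separate cultures. A p-value here therefore speaks for the scatter of these libraries, which can be technical.

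Neurites receive part of their RNA from the cell body. Motor proteins carry messages in granules along microtubules, and local ribosomes translate them, with messages for ribosomal proteins, the cytoskeleton and mitochondria well known among them. Nuclear RNAs such as small nuclear and small nucleolar RNAs stay with the cell body. TDP-43 is an RNA-binding protein of the nucleus that binds UG-rich RNA, represses cryptic exons, limits its own message and is also found in axonal transport granules. It leaves the nucleus of affected neurons in amyotrophic lateral sclerosis and frontotemporal dementia.

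Neurite libraries held 6834768 to 14506751 counts and soma libraries 16234472 to 28902344. Neurite libraries 1 and 2 stood apart. They held 13.1 and 20.7% of their counts in 7SL RNA (RN7SL1 and RN7SL2), the RNA of the signal recognition particle, against 3.52 to 5.13% in the other 3. With all RN7SL genes and pseudogenes counted the shares were 20.6 and 31.7% against 5.65 to 7.97%. The 12 neuron markers summed to 10366 to 11474 CPM in neurites and 6611 to 7456 CPM in soma, where CPM is the count in 1000000 of TMM-scaled library size. Gene by gene 6 of the 12 were higher and 5 lower (edgeR, adjusted p under 0.05), and with library sizes 2 and 6. The lower count was 3 without neurite library 1, 2 or 4 or soma library 1 or 3. The 5 glutamatergic markers summed to 299 to 332 and 344 to 353 CPM. Markers of other cells were low but present, and most of their sums were higher in neurites. Those of neural progenitors summed to 450.1 to 543 CPM in neurites and 248 to 278 in soma, largely from NES. Cycling cell markers summed to 24.6 to 31.6 and 10.5 to 14.7 CPM, pluripotent cell markers to 14 to 17 and 7.81 to 9.13, and mesenchymal markers to 8.22 to 11.1 and 5.54 to 7.56. Glial markers summed to 11.4 to 15.8 and 12.3 to 14.8 CPM. LUM, a mesenchymal marker, was at 0 in all soma libraries, and the part of such cells in the results was not tested. In bulk RNA, fewer cells of a type and less RNA per cell cannot be told apart.

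Of 20345 genes tested, 12385 (60.9%) differed between fractions at an adjusted p under 0.05 (edgeR's quasi-likelihood test, Benjamini-Hochberg), the threshold used throughout. Levels were higher in neurites for 6108 genes (30.0%) and lower for 6277 (30.9%). Counts of called genes in the lists below are to be read against these shares. A change of at least 2-fold was called upward for 1804 genes (8.87%) and downward for 1366 (6.71%). Ratios are log2 values of neurite over soma, followed by ± their standard error. TMM scaling centres most genes near 0, at a median of −0.03. With library sizes alone the median was −0.56 and the calls were 1952 higher (9.59%) and 13074 lower (64.3%), 73.9% in all. Protein-coding genes took 58.7 to 84.1% of counts in neurites and 84.4 to 87.6% in soma. A direction below is therefore relative to the bulk of genes. Without neurite libraries 1 and 2, a choice made after seeing the data, 6079 genes were higher and 6005 lower.

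The targeted message was higher in neurites. TARDBP (ENSG00000120948.19, hg38 chromosome 1, 11012344 to 11026420) stood at 48.5, 36.8, 40.6, 40.4 and 42.5 CPM in neurite libraries 1 to 5 and at 18.7, 18.8, 20.1 and 20.5 CPM in soma libraries 1 to 4. The neurite values all lie above the soma values. Means were 41.8 ± 4.3 and 19.5 ± 0.935 CPM (SD, n = 5 and 4), a log2 ratio of 1.11 ± 0.07 (adjusted p = 6.2e-11, edgeR). Control levels were 116 ± 7.29 CPM in neurites and 110.3 ± 4.57 CPM in soma (SD, n = 5 each), above every knockdown library. In a fit over the 19 libraries of the TDP-43 experiment the ratio was 1.11 ± 0.07 in knockdown and 0.08 ± 0.06 in controls. The difference between them was 1.02 ± 0.09 (adjusted p = 3.9e-08, edgeR), and 2308 of 22080 genes (10.5%) had a called difference of this kind, 1280 upward (5.8%) and 1028 downward (4.66%).

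**Figure D1:**
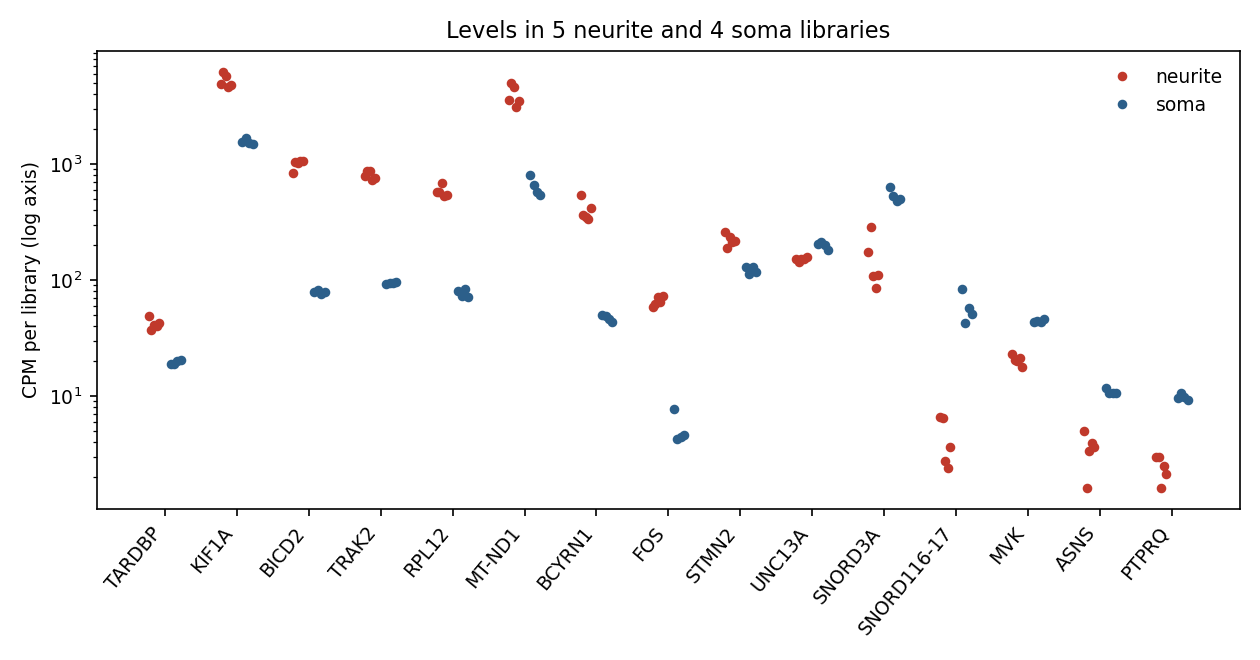
CPM of 15 genes on a log axis, with 1 point per library for 5 neurite and 4 soma knockdown libraries. TARDBP, KIF1A, BICD2, TRAK2, RPL12, MT-ND1, BCYRN1, FOS and STMN2 are higher in every neurite library, and the last 6 genes are lower in every neurite library; BICD2, for example, lies at 841 or above in neurites and at 82.5 or below in soma.

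Small nucleolar and small nuclear RNAs that passed the filter on low counts were mostly lower in the neurite fraction. Of 942 small nucleolar RNA (snoRNA) genes 81 passed the filter on low counts, and of these 76 were lower and 0 higher, with a median log2 ratio of −1.80 (−2.32 with library sizes). Of the 81, 50 passed through their soma level alone, so this count describes abundant soma snoRNAs. The other 31 reached the level of the filter in neurites, and of these 28 were lower, with a median of −1.66. Only 2 of the 81 had a ratio above 0, and 0 of these passed at an unadjusted p under 0.05, with DESeq2 or with limma-voom. SnoRNAs guide the chemical modification or cleavage of ribosomal RNA in the nucleolus. They carry short boxes that bind their protein partners, boxes C and D (TGATGA and CTGA) in one class and H and ACA in the other. An example of each class is shown, with boxes C and D of the one and box ACA of the other in capitals, 5′ to 3′ from GENCODE 29; both were chosen after their values were seen.
SNORD116-17 (GRCh38 chr15:25083588-25083679, plus strand): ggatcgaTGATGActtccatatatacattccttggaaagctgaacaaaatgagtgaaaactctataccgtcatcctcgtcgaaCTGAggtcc
SNORA23 (GRCh38 chr11:9428773-9428954, plus strand): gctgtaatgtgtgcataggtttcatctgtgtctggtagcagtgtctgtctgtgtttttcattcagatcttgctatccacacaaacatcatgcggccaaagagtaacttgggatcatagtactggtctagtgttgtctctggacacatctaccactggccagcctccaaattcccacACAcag

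SNORD116-17, from the imprinted cluster on chromosome 15, held 6.57, 6.4, 2.74, 2.41 and 3.63 CPM in neurites and 83.9, 42.6, 57.7 and 50.8 in soma, a log2 ratio of −3.80 ± 0.22 (adjusted p = 1.4e-11, edgeR). Its highest neurite value is below its lowest soma value by several fold. SNORA23 had a ratio of −3.38 ± 0.30. SNORD3A, the U3 RNA that acts in cleavage of the ribosomal RNA precursor, held 176, 287, 108, 85.4 and 110 CPM in neurites and 637, 528, 476 and 504 in soma (log2 ratio −1.84 ± 0.22). The neurite libraries with most 7SL RNA, 1 and 2, also held most SNORD3A. Near-identical copies of U3 share reads, so the split between SNORD3A, SNORD3B-1 and SNORD3B-2 is uncertain. Of 75 tested snoRNAs with a single GENCODE sequence, 22 (29.3%) held TGATGA in the first 20 bases and CTGA in the last 20, with a median ratio of −1.47. Another 34 (45.3%) held ACA just before the last 3 bases, with a median of −1.74.

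Of 1910 small nuclear RNA genes, which include those of the spliceosome, 62 passed the filter, with 55 of 62 tested genes lower and 0 higher (1 at an unadjusted p under 0.05, 1 with DESeq2 and 0 with limma-voom), and a median of −1.46. The level of the filter was reached in neurites by 34 of them, of which 32 were lower, and in soma alone by 25. RNU4-1, a U4 gene, had a ratio of −2.14 ± 0.20, and RNU1-1, RNU1-2 and RNU1-4, near-identical U1 copies whose split is uncertain, had −1.45, −1.42 and −1.36. Genes typed as long noncoding RNA were called lower in 1292 and higher in 429 of 3179 cases, that is 40.6 and 13.5%, with a median of −0.34. Protein-coding genes were called lower in 28.4% and higher in 35.0%. Among 12 tested RNAs listed as retained in the nucleus, 5 were lower and 3 higher. Whether each member of the list stays in the nucleus was not measured here. MIAT (−1.34), FTX (−1.01), SNHG14 (−0.73), KCNQ1OT1 (−0.56) and NEAT1 (−0.37), the scaffold of paraspeckles, were lower. RMST (0.93), GAS5 (0.87) and TUG1 (0.21) were higher, TUG1 with a ratio of −0.32 under library sizes. MALAT1, an abundant RNA of nuclear speckles, had a ratio of −0.04 ± 0.07 (adjusted p = 0.67, edgeR) and its groups overlapped.

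As shares of all counts, MALAT1 and NEAT1 together took 0.0201, 0.0178, 0.0238, 0.0232 and 0.0228% in neurite libraries and 0.0364, 0.0359, 0.0359 and 0.0314% in soma libraries. On this scale, without TMM, the median log2 ratio of all genes was −0.56 and that of MALAT1 −0.59. Every neurite share of MALAT1 with NEAT1 is below every soma share. Means were 0.0215 ± 0.00253% in neurites and 0.0349 ± 0.00231% in soma (SD, n = 5 and 4), and an exact 2-sided permutation test gave p = 0.0159, the smallest this design allows, and 0.0278 adjusted over 7 shares. Without neurite library 4 or 5 this adjusted exact permutation p was 0.04, and without any other of the 9 libraries it was 0.05 to 0.0625 and the call was lost, as for the other 3 shares given here with an adjusted p of 0.0278. Counts of nuclear ribosomal RNA genes took 2.94 ± 0.491% in neurites and 3.27 ± 0.298% in soma (SD, n = 5 and 4) and did not pass (exact permutation p = 0.302). Those of long noncoding RNA took 3.15 ± 0.644% in neurites and 4.11 ± 0.602% in soma (SD, n = 5 and 4), with exact permutation p = 0.0794 and 0.0926 once adjusted. Replication-dependent histones, whose messages lack a poly(A) tail, took 0.078 ± 0.00545% in neurites and 0.0937 ± 0.007% in soma (SD, n = 5 and 4), with an adjusted exact permutation p of 0.0444 that rose to 0.19 once 7SL and ribosomal RNA were left out of the denominator. The histone call held without neurite library 4 and was lost without any other of the 9 libraries, at differences of −0.0132 to −0.0188 percentage points. Gene by gene, with TMM scaling, 18 of 40 tested histones were higher and 3 lower, at a median log2 ratio of 0.23. With library sizes, the scale of the shares, 3 were higher and 15 lower, at a median of −0.30. Without neurite libraries 1 and 2 the TMM-scaled counts were 15 and 10. The lower count was 8 without neurite library 2, 6 without soma library 3 and 1 without soma library 4.

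**Figure D2:**
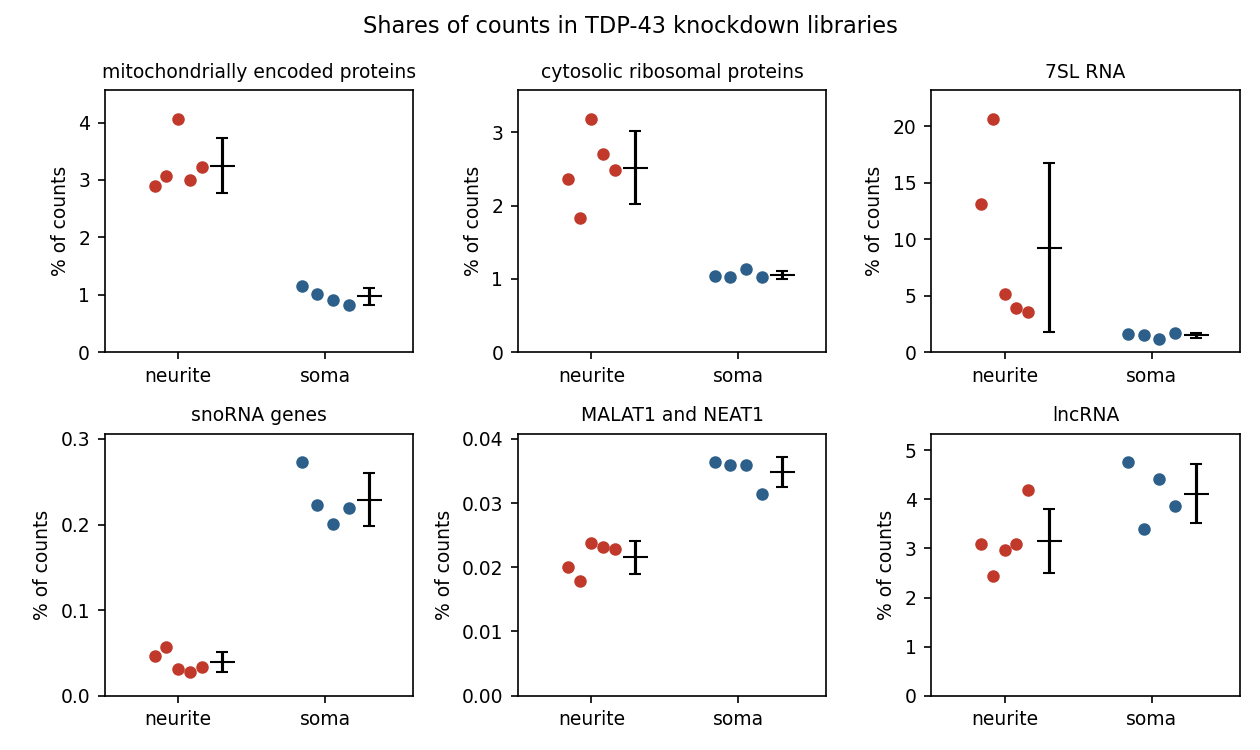
Percent of counts in 6 RNA classes, with 1 point per knockdown library and a bar for the mean ± SD (n = 5 neurite, 4 soma). Mitochondrially encoded, ribosomal protein and 7SL counts lie higher in every neurite library, snoRNA counts (0.0276 to 0.0569% against 0.201 to 0.273%) and MALAT1 with NEAT1 lower, and the lncRNA values overlap.

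A pair of small cytoplasmic RNAs, 7SL RNA and BCYRN1, was higher in neurites. The 102 tested genes of the annotation type that holds 7SL RNA, miscellaneous RNA, gave 25 higher and 39 lower, with a median of −0.24. 7SL RNA (RN7SL1 and RN7SL2) took 13.1, 20.7, 5.13, 3.87 and 3.52% of counts in neurite libraries 1 to 5 and 1.65, 1.49, 1.17 and 1.7% in soma libraries, with adjusted exact permutation p = 0.0278. RN7SL1 had a log2 ratio of 3.34 ± 0.50, with a wide spread over neurite libraries. Without libraries 1 and 2 it was 1.89, and without library 2 alone 2.61. In control neurite libraries the share of 7SL RNA ran from 11.1 to 29.5%, above the range of 0.958 to 1.69% in control soma. BCYRN1 (ENSG00000236824.2, hg38 chromosome 2, 47335315 to 47335514), also called BC200, is a neuronal RNA that is carried into dendrites and represses translation, and is shown although the rule for naming genes did not pick it. Its level was 541, 362, 349, 338 and 415 CPM in neurites and 50.3, 48.8, 45.8 and 43 in soma, 8.57-fold higher in neurites, with a log2 ratio of 3.10 ± 0.11 (adjusted p = 1.3e-14, edgeR). Every neurite library stood far above every soma library, and library 1 was the highest.

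Messages made inside mitochondria had the highest median of the lists tested. All 13 protein-coding genes of mitochondrial DNA were higher in neurites, with a median log2 ratio of 2.25 and a range of 1.98 to 2.62. Library sizes gave a median of 1.69. MT-ND1 (chromosome M, 3307 to 4262), a core subunit of complex I, had the largest ratio. It stood at 3596, 5024, 4616, 3116 and 3524 CPM in neurites and 809, 659, 579 and 537 in soma (log2 ratio 2.62 ± 0.14, adjusted p = 3.8e-12, edgeR). The lowest ratio was that of MT-ATP8, a subunit of ATP synthase, at 1.98 ± 0.13. The 13 messages took 2.89, 3.07, 4.07, 3 and 3.22% of counts in neurites and 1.15, 1.01, 0.91 and 0.813% in soma, with adjusted exact permutation p = 0.0278. All 21 tested mitochondrial transfer RNAs were higher too, at a median of 2.22, and the mitochondrial ribosomal RNAs MT-RNR1 and MT-RNR2 had ratios of 2.85 and 2.62. Within the 19-library fit, 9 of the 13 protein genes had a higher ratio in knockdown than in controls, at medians of 2.25 and 1.77.

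Nuclear genes for mitochondrial proteins differed by list. Of 77 nuclear-encoded respiratory chain subunits 49 were higher and 8 lower, with a median of 0.40, which became −0.14 with library sizes (22 higher, 30 lower). COX6A1, a small subunit of cytochrome c oxidase, stood at 118 ± 20.5 CPM in neurites and 26.5 ± 1.96 in soma (SD, n = 5 and 4), a ratio of 2.16 ± 0.09. ATP5ME (1.57), COX8A (1.43) and NDUFA3 (1.37) were other small subunits that were higher. NDUFV2 (−1.23) and NDUFA13 (−0.80), both of complex I, were lower. Mitochondrial ribosomal proteins gave 17 higher and 26 lower of 75, with a median of −0.06, near that of all genes. MRPS5 had the lowest ratio, −1.16 ± 0.14, and MRPL22 the highest, 0.74 ± 0.08.

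Messages for the cytosolic ribosome were raised nearly without exception. Of 79 ribosomal protein genes 77 were higher and 0 lower, with a median log2 ratio of 1.76 (1.23 with library sizes, where 76 were higher and 1 lower). These messages typically begin with a C and a run of pyrimidines, the 5′ terminal oligopyrimidine (TOP) tract, through which cells set their translation. The first 20 transcribed bases at the RefSeq start are shown, 5′ to 3′, for ribosomal proteins with high and low ratios and for TPT1 and NACA. The tract, an initial C followed by at least 4 C or T, is in capitals; it was searched on the transcribed strand only.
RPL12 (GRCh38.p14 chr9:127451387-127451406, minus strand): CCTCTCggctttcggctcgg
RPL39 (GRCh38.p14 chrX:119791611-119791630, minus strand): CCCTCCTCTTCCTTTCTCCg
RPS12 (GRCh38.p14 chr6:132814569-132814588, plus strand): CTCTTTCCCTgccgccgccg
RPLP1 (GRCh38.p14 chr15:69452818-69452837, plus strand): CCCCTTTCCTCagctgccgc
RPS10 (GRCh38.p14 chr6:34426050-34426069, minus strand): CCTTTCCagccccggtaccg
RPL14 (GRCh38.p14 chr3:40457339-40457358, plus strand): CTTCTCgcctaacgccgcca
RPS28 (GRCh38.p14 chr19:8321496-8321515, plus strand): actcctctccgccagaccgc
TPT1 (GRCh38.p14 chr13:45341164-45341183, minus strand): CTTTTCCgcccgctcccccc
NACA (GRCh38.p14 chr12:56725280-56725299, minus strand): CTTTCTgccgccatcttggt

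RPL12 and RPL39, the first 2 sequences, had the highest ratios of the list. RPL12 (ENSG00000197958.13, hg38 chromosome 9, 127447674 to 127451405) stood at 578, 570.1, 680.5, 529.8 and 538 CPM in neurites and 80.9, 72.8, 83.5 and 72 in soma (log2 ratio 2.91 ± 0.08, adjusted p = 1.9e-16, edgeR). RPL39 stood at 186, 153, 224, 166 and 175 and 27, 21.8, 28.4 and 24.1 CPM (log2 ratio 2.84 ± 0.10). No library of one fraction reached the values of the other. RPS10, the fifth sequence, had the lowest called ratio, 0.50, a call that was lost without neurite library 1 (0.39) or 5 (0.45), with no filter (0.43), with the replicate number as a block (0.41) and under library sizes (−0.03). RPS28, whose RefSeq start lacks the tract, had a ratio of 2.09. Of 53 ribosomal protein genes with a single RefSeq start, 41 (77.4%) held the tract, with a median ratio of 1.86, and the 12 without it had 1.5. Of the 7887 protein-coding genes tested and matched in the same way 425 (5.39%) held it, and of all promoters, tested or not, 4.07%. Outside the lists of ribosomal proteins and translation factors, 371 tested genes held the tract. Of these 37.7% were higher and 28.8% lower, with a median of 0.07, beside 33.5 and 28.7% and 0.01 for genes without it. A match to these letters is a description of the annotated start and not a measured start. Ribosomal protein genes also have many processed pseudogenes that can take their reads; RPL39P3, such a copy, had a ratio of 3.59 ± 0.10.

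Ribosomal protein messages together took 2.37, 1.83, 3.19, 2.71 and 2.49% of counts in neurites and 1.04, 1.02, 1.13 and 1.02% in soma, with adjusted exact permutation p = 0.0278. Among 48 translation factors 32 were higher and 8 lower, at a median of 0.35, or −0.19 with library sizes. Those with the tract gave 10 higher and 0 lower of 13, with a median of 0.61, and those without it 6 and 5 of 15, with a median of −0.08. TPT1, a growth-related protein with a TOP message, stood at 302, 267, 329.6, 291 and 293 CPM in neurites and 74.7, 69.6, 75.7 and 72.6 in soma (log2 ratio 2.02 ± 0.06). NACA, which binds nascent chains at the ribosome, had 1.80 ± 0.08, and the elongation factor genes EEF1B2 and EEF1A1 had 1.44 ± 0.07 and 1.33 ± 0.08. EIF2B4, a subunit of the exchange factor of initiation, was lower at −0.55 ± 0.07. YBX1, an mRNA-packaging protein, had 1.80 ± 0.08, and HNRNPA1 0.66 ± 0.06.

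**Figure D3:**
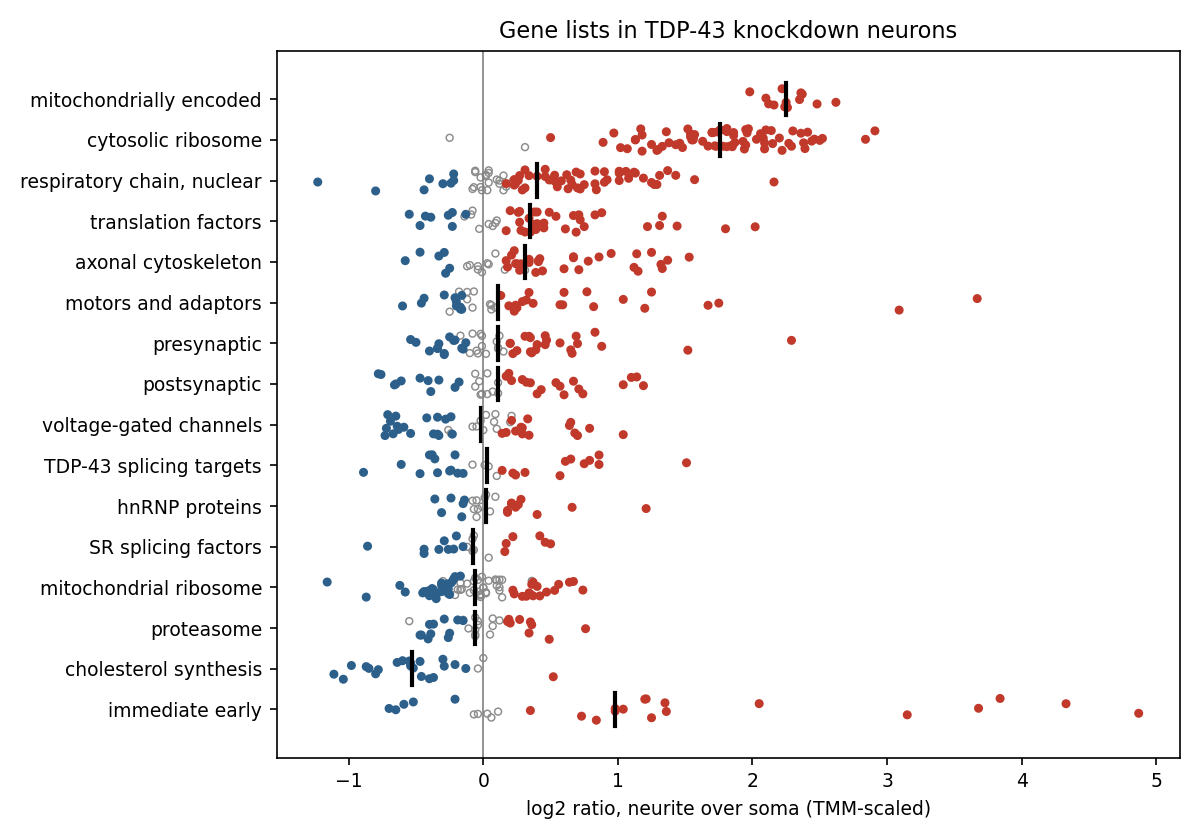
Log2 ratio of neurite over soma (TMM-scaled) for tested members of 16 gene lists, 1 point per gene. Filled points passed the test (red higher, blue lower), open points did not, and bars are medians, from 2.25 for mitochondrially encoded genes to −0.53 for cholesterol synthesis.

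Motor adaptors held the largest ratios among transport genes. BICD2 (ENSG00000185963.14, hg38 chromosome 9, 92711363 to 92764812), an adaptor that links cargo to dynein, stood at 841, 1045, 1025, 1053 and 1069 CPM in neurites and 78.3, 82.5, 76.3 and 78.1 in soma, 12.8-fold higher in neurites (log2 ratio 3.67 ± 0.08, adjusted p = 1.1e-17, edgeR). Neurite library 1 was the lowest of its group and still stood far above soma. TRAK2 (ENSG00000115993.13, hg38 chromosome 2, 201377207 to 201451579), which couples mitochondria to motors, stood at 784, 866, 864, 730.2 and 754 CPM in neurites and 92.3, 93.4, 93.3 and 95.3 in soma (8.53-fold, log2 ratio 3.09 ± 0.07). KIF1A, the kinesin of synaptic vesicle precursors, was among the most abundant messages of the fraction, at 4855, 6267, 5704, 4635 and 4773 CPM against 1557, 1691, 1532 and 1478 in soma (log2 ratio 1.75 ± 0.10). BICD1 had 1.67 ± 0.07. None of these 4 overlapped between fractions. How many of all tested genes did not overlap was not counted, and 60.9% of them were called. Of 42 motor and adaptor genes 21 were higher and 11 lower, with a median of 0.11 (7 and 25, with a median of −0.43, under library sizes). The shares of all genes were 30.0 and 30.9%. RHOT2, a mitochondrial anchor (−0.60), and DYNLT3, a dynein light chain (−0.46), were the lowest called.

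Axonal cytoskeleton and growth genes gave 31 higher and 6 lower of 47, with a median of 0.31 (−0.22 with library sizes). Large linkers led. DST, a spectraplakin, had a ratio of 1.53 ± 0.08, SPTBN1, a spectrin, 1.37 ± 0.08, ANK3, the ankyrin of the axon initial segment, 1.33 ± 0.08, and MAP1A 1.32 ± 0.07. Among neuron markers of the cytoskeleton NEFL (0.95 ± 0.08), MAP2 (0.71 ± 0.06) and DCX (0.67 ± 0.06) were higher, while TUBB3, a tubulin, was lower. MAP1B, a microtubule-associated protein among the 10 most abundant RNAs of both fractions, stood at 9181 ± 737 CPM in neurites and 5349 ± 320.4 in soma (SD, n = 5 and 4). All 6 lower members were tubulin genes, with TUBB3 at −0.58 ± 0.07 and TUBB4A at −0.47 ± 0.07 the lowest.

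Synaptic lists were mixed. Of 51 presynaptic genes 23 were higher and 14 lower, where the shares of all genes were 30.0 and 30.9%. RIMS1, a scaffold of the release site, had the highest ratio (2.29 ± 0.06), followed by RIMS2 (1.52 ± 0.05), ERC1 (0.88 ± 0.06) and CPLX2 (0.83 ± 0.05). SYT5 (−0.54 ± 0.06), STX1A (−0.50 ± 0.06) and SYT1 (−0.29 ± 0.06), of vesicle fusion, were lower. Among 39 dendritic and postsynaptic genes 18 were higher, led by HOMER1 (1.19 ± 0.05), DDN (1.14 ± 0.31) and DLG1 (1.10 ± 0.06), and 11 were lower, led by GRIA2 (−0.78 ± 0.07) and DLG2 (−0.76 ± 0.08). The 45 voltage-gated channel genes gave 15 higher and 18 lower. The potassium channel gene KCND3 stood at 24, 25.4, 20.6, 25.3 and 25 CPM in neurites and 10.9, 12.1, 11.2 and 12.6 in soma (log2 ratio 1.04 ± 0.07), the highest ratio of the list, and KCNA4 had the lowest (−0.73 ± 0.22).

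Genes known for cryptic splicing or polyadenylation when TDP-43 is lost had no common direction between fractions. Of 28 tested 12 were higher and 12 lower, with a median of 0.03, beside 30.0 and 30.9% of all genes. STMN2 (ENSG00000104435.14, hg38 chromosome 8, 79610814 to 79666175), a regulator of microtubules needed for axon regrowth, stood at 257, 189, 236, 213 and 217 CPM in neurites and 129.5, 113, 129.8 and 118 in soma (log2 ratio 0.86 ± 0.07, adjusted p = 3.2e-09, edgeR). UNC13A (ENSG00000130477.16, hg38 chromosome 19, 17601328 to 17688365), which primes vesicles, stood at 151, 143, 151, 152 and 159 CPM in neurites and 204, 214, 199 and 183 in soma, a ratio of −0.40 ± 0.05. Neither gene's libraries overlapped between fractions, for which no share over all genes was counted, and the 2 genes lay on opposite sides. Counts per gene do not separate normal from truncated transcripts. CNTN2 (1.51), GPSM2 (0.86), ELK1 (0.75), CDK7 (0.65), ELAVL3 (0.61) and RSF1 (0.57) were other members that were higher. SIX3 (−0.89), CAMK2B (−0.61), PFKP (−0.47), ATG4B (−0.38) and ACTL6B (−0.36) were lower. INSR, SYT7 and CELF5 had ratios of 0.01, 0.04 and −0.08 and did not pass. In the 19-library fit 7 members had a higher ratio in knockdown than in controls and 1 a lower one (2 and 0 under library sizes). STMN2 had 0.86 ± 0.08 in knockdown and 0.24 ± 0.07 in controls (difference 0.62 ± 0.11, adjusted p = 0.00042, edgeR). UNC13A, the member with a lower ratio, had −0.40 ± 0.07 and 0.00 ± 0.07 (difference −0.40 ± 0.10, adjusted p = 0.012). Under library sizes neither call held, at 0.71 (adjusted p = 0.06, edgeR) and −0.35 (adjusted p = 0.47). ELAVL3 and ELK1 had differences of 0.78 ± 0.09 and 0.82 ± 0.10.

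Of 30 genes linked to amyotrophic lateral sclerosis or frontotemporal dementia 12 were higher and 11 lower. For this and the next lists the shares of all genes were 30.0 and 30.9%. After TARDBP the highest were NEK1 (0.84), ATXN2 (0.72), HNRNPA1 and CHCHD10 (0.64). GRN, which encodes progranulin, was the lowest at −0.88 ± 0.07, followed by C9orf72 (−0.75 ± 0.09), MATR3 (−0.69 ± 0.08) and TIA1 (−0.66 ± 0.05). TBK1 (−0.44), VCP (−0.35), FIG4 (−0.34) and HNRNPA2B1 (−0.31) were also lower. SQSTM1, UBQLN2, KIF5A and TUBA4A had ratios of −0.04, −0.02, 0.09 and 0.16 and did not pass. Among 27 hnRNP genes, which package nascent transcripts, 11 were higher, with PCBP2 (1.21 ± 0.06) first, and 6 were lower, with HNRNPH2 (−0.36 ± 0.06) first; without neurite libraries 1 and 2 the lower count was 3. SR splicing factors gave 6 higher and 9 lower of 21, with SRRM3, a neuronal microexon regulator, lowest at −0.86 ± 0.06. RNA granule and transport genes gave 19 and 11 of 44; APC, whose protein anchors RNA granules at microtubule ends, had 1.64 ± 0.06.

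Cholesterol synthesis was, of the lists tested, the most often lower. Of 24 genes 21 were lower and 1 higher, with a median of −0.53 (−1.06 with library sizes). MVK, mevalonate kinase, ran from 17.7 to 23 CPM in the 5 neurite libraries and from 43 to 46 in the 4 soma libraries (log2 ratio −1.11 ± 0.07, adjusted p = 2.9e-11, edgeR). HSD17B7 (−1.04 ± 0.13), LSS (−0.98 ± 0.05) and MVD (−0.87 ± 0.05), enzymes of the same pathway, followed. SREBF2, the transcription factor that drives these genes, was the member that was higher, at 0.52 ± 0.06 and −0.02 with library sizes. The medians in the 19-library fit were −0.53 in knockdown and −0.75 in controls, and 12 genes had a called difference upward and 0 downward. MVD had −0.87 ± 0.06 in knockdown and −1.48 ± 0.05 in controls (adjusted p of the difference = 1.5e-05, edgeR).

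The list of the unfolded protein response and the integrated stress response gave 10 higher and 15 lower of 33, beside 30.0 and 30.9% of all genes. ASNS, asparagine synthetase, stood at 4.95, 1.6, 3.38, 3.92 and 3.63 CPM in neurites and 11.7, 10.7, 10.6 and 10.6 in soma (log2 ratio −1.54 ± 0.14). PHGDH, of serine synthesis, had −1.24 ± 0.07, CHAC1, which degrades glutathione, −1.02 ± 0.09, and SDF2L1, of the endoplasmic reticulum, −1.58 ± 0.25. DDIT3, the transcription factor CHOP, was higher at 1.05 ± 0.13, and DNAJC3, a co-chaperone, at 1.05 ± 0.08. Glycolysis genes gave 5 higher and 6 lower of 17. GAPDH stood apart within that list, at 1172, 1431, 1542, 1115 and 1049 CPM in neurites and 335, 312, 322 and 281 in soma (log2 ratio 2.01 ± 0.10), and ALDOC was lowest at −1.01 ± 0.14. The lists of proteasome genes (9 higher, 11 lower of 33) and of autophagy and lysosome genes (13 and 15 of 43) had medians near that of all genes. TFEB, the transcription factor of lysosomal genes, had a ratio of 2.28 ± 0.32 at a level of only 1 ± 0.25 CPM in neurites and 0.197 ± 0.0483 in soma (SD, n = 5 and 4). Endoplasmic reticulum and secretion genes gave 20 higher and 5 lower of 41, with SSR4 (1.05 ± 0.05) and OST4 (0.96 ± 0.08) highest; their median of 0.12 became −0.42 with library sizes. Nuclear pore and import genes gave 18 and 9 of 38, with NUP54 highest at 1.29 ± 0.06 and AAAS lowest at −0.71 ± 0.07.

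Immediate early and axon injury genes were mostly higher in neurites, 17 against 5 lower of 27, with a median of 0.98 (0.45 with library sizes). Of all genes 30.0% were higher and 30.9% lower. FOS, a transcription factor induced by activity, stood at 58.3, 62.2, 71.5, 64.4 and 72.2 CPM in neurites and 7.7, 4.26, 4.44 and 4.57 in soma (12.8-fold, log2 ratio 3.68 ± 0.12, adjusted p = 2.7e-15, edgeR). GADD45B, a stress-induced growth regulator, stood at 19.7, 19.6, 24.8, 19.1 and 23.6 and 0.975, 0.811, 0.598 and 0.598 CPM (29.2-fold). Soma levels of both were low in every library. KLF4 (4.33 ± 0.39) and NPAS4 (3.84 ± 0.19) were higher too. NR4A3 (−0.70 ± 0.05) and MYC (−0.65 ± 0.06) were lower. Neuronal transcription factors gave 23 higher and 9 lower of 40, with ST18 highest at 2.82 ± 0.08. Among 13 tested genes of bone morphogenetic protein signalling 8 were higher, with ID1 at 3.18 ± 0.16, and 2 lower (1 without neurite library 1 or 4, or soma library 1 or 3). For p53 targets the counts were 9 and 4 of 23, with the cell cycle inhibitor CDKN1A at 3.77 ± 0.18, and the lower count was 1 without neurite library 4. For interferon-stimulated genes they were 7 and 7 of 18, with HLA-B at 2.16 ± 0.18 and IFIT3 at −1.10 ± 0.15.

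Many of the largest ratios belonged to genes that were nearly silent in soma. PECAM1, an adhesion molecule of endothelial cells, stood at 4.43, 5.8, 6.77, 4.3 and 7.72 CPM in neurites and 0.103, 0.243, 0.0427 and 0.0815 in soma (log2 ratio 5.55 ± 0.32). SLC5A5, the iodide transporter, had 4.53 ± 0.21, ITGB4, an integrin, 4.34 ± 0.20, the growth factor gene IGF2 4.31 ± 0.27, SAMSN1 4.25 ± 0.22 and COL12A1, a collagen, 4.14 ± 0.21. STPG2 (3.90), AHNAK (3.79), OPRD1, the delta opioid receptor (3.68), and CDKL4 (3.53) complete the 15 with GADD45B, NPAS4, CDKN1A, FOS and BICD2. Apart from BICD2 and FOS their neurite means were below 40 CPM. Some markers of other cell types moved in the same direction. COL1A1, a mesenchymal marker, stood at 3.24, 3.6, 3.71, 3.32 and 3.7 CPM in neurites and 0.103, 0.405, 0.598 and 0.516 in soma (log2 ratio 3.00 ± 0.25). GLI3 (3.08 ± 0.16) and NES (0.94 ± 0.06), of neural progenitors, LIN28A (1.65 ± 0.16), of pluripotent cells, and PLK1 (1.70 ± 0.15), of cycling cells, were higher in neurites as well. Of 8 markers listed for each type, 5 of cycling cells, 2 of pluripotent cells and 8 of progenitors passed the filter on low counts. A marker can pass through its neurite level alone, which favours calls of higher, and how many did so was not examined. Of the tested markers, all 5 of cycling cells, 2 of 2 of pluripotent cells and 4 of 8 of progenitors were called higher. The same was true of 1 of 4 mesenchymal and 0 of 2 glial markers. COL3A1, LUM and DCN, of mesenchymal cells, and TDGF1 and ZFP42, of pluripotent cells, stayed close to 0 in both fractions. Whether such cells contribute to the largest ratios was not tested.

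The smallest ratios were less extreme. PTPRQ, a receptor phosphatase, stood at 2.98, 3, 1.61, 2.49 and 2.13 CPM in neurites and 9.65, 10.5, 9.78 and 9.24 in soma, 3.98-fold higher in soma (log2 ratio −1.99 ± 0.13, adjusted p = 1.2e-10, edgeR). PDIA2, a disulfide isomerase, stood at 6.14, 4.6, 5.16, 4.07 and 3.78 and 17.1, 19.3, 15.8 and 15.2 CPM (log2 ratio −1.83 ± 0.12). Ratios from −1.78 to −1.47 followed for CES4A, CDK5RAP3, IL11RA, UNC5A, MC1R, IDUA, GALT, WSB1, NBEAL2, ASNS, EXD3 and FBN3. UNC5A is a netrin receptor, MC1R the melanocortin receptor, IDUA a lysosomal enzyme and GALT an enzyme of galactose metabolism. WSB1 was the most abundant of those named, at 56.9 ± 8.24 CPM in neurites and 173 ± 12.5 in soma (SD, n = 5 and 4). Libraries of the genes named did not overlap between fractions, which the rule that picked them required.

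Long messages were more often higher in neurites. Protein-coding genes were divided into 5 equal groups by the length of their longest GENCODE transcript. In the group of longest transcripts (6089 bases or more) 50.2% were called higher and 19.5% lower, with a median log2 ratio of 0.17. Among the shortest (up to 2207 bases), which include the ribosomal protein messages, 30.8% were higher and 26.9% lower. The next group (2209 to 3221 bases) stood lowest, with 26.2% higher, 34.6% lower and a median of −0.06. With library sizes the medians of the longest and of this group were −0.37 and −0.59, in the same order, and in controls they were 0.04 and −0.08. Length was read from the annotation, and the part of read distribution along transcripts was not tested.

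The ratio within knockdown was then set beside that within non-targeting controls, in the fit of 19 libraries. Protein-coding genes gained more than they lost, with 1181 called upward and 440 downward (981 and 643 in a fit of these genes alone), whereas long noncoding RNA gave 48 and 325 (101 and 36, and 11 and 74, under library sizes). With library sizes the counts over all genes fell to 132 upward and 203 downward. The largest rise was that of NKD2, a Wnt pathway inhibitor, with 1.74 ± 0.12 in knockdown and −0.31 ± 0.14 in controls (difference 2.05 ± 0.18, adjusted p = 3.9e-08, edgeR). Within knockdown it stood at 23.1, 20, 19.5, 15.5 and 15.5 CPM in neurites and 6.31, 5.59, 5.38 and 5.14 in soma. PHF2, a histone demethylase, had 1.42 ± 0.06 in knockdown and −0.10 ± 0.06 in controls (difference 1.52 ± 0.09, adjusted p = 2.5e-12). Its knockdown levels were 306, 322, 315, 287 and 265 CPM in neurites and 109, 116, 111 and 111 in soma, without overlap. The adaptors TRAK2 and BICD2, already high in control neurites at 1.72 ± 0.10 and 2.56 ± 0.08, had ratios higher by 1.37 ± 0.14 and 1.11 ± 0.12 in knockdown. MLYCD, malonyl-CoA decarboxylase (1.23 ± 0.11), MASP2 (1.22 ± 0.17), PDZRN4 (1.18 ± 0.24), ICAM5, a neuronal adhesion molecule (1.16 ± 0.26), HSPG2, perlecan (1.08 ± 0.31), and the vesicular transporter SLC6A17 (1.08 ± 0.13) complete the 10 largest. MASP2 is a neighbour of the targeted gene TARDBP, and whether its value is separate from that of TARDBP was not tested. The call of HSPG2 was lost when control soma library 2 or 5, knockdown neurite library 5 or knockdown soma library 4 was left out, at differences of 0.93 to 0.98.

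**Figure D4:**
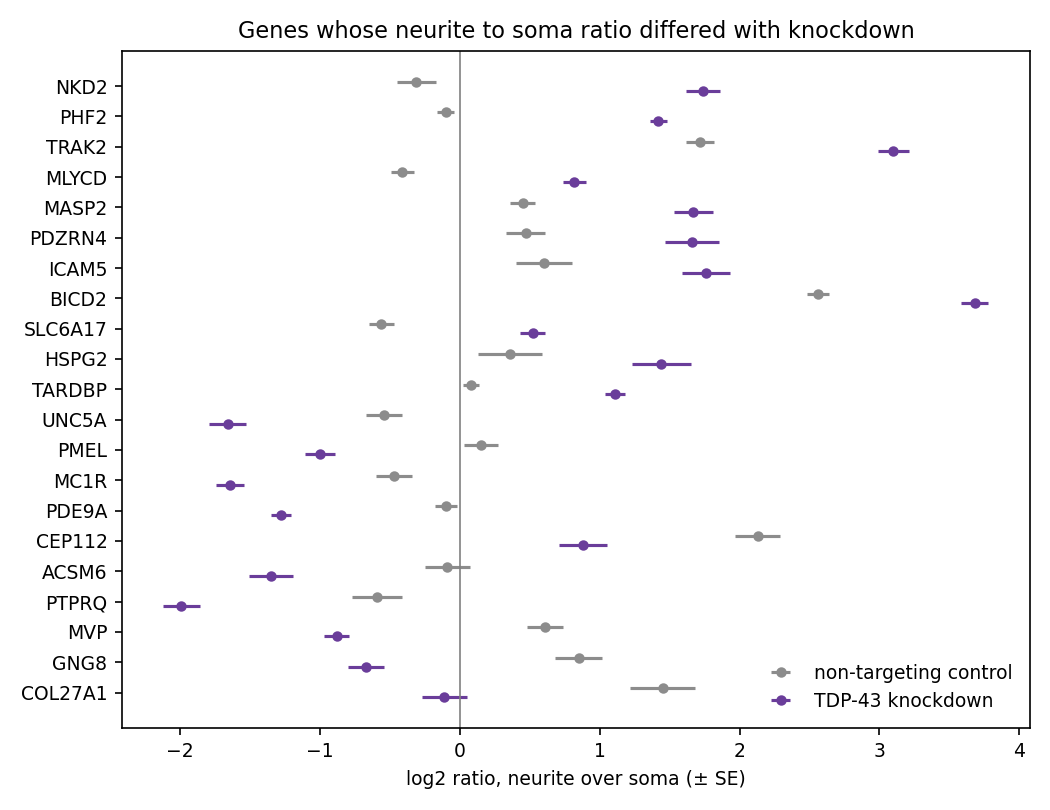
Log2 ratio of neurite over soma (± SE) in the fit of 19 libraries, for TARDBP and the 10 protein-coding genes with the largest and the 10 with the smallest difference between knockdown (purple) and controls (grey). NKD2 goes from −0.31 in controls to 1.74 in knockdown and MVP from 0.61 to −0.88.

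Among genes whose ratio fell, MVP, the major vault protein, changed side. It had −0.88 ± 0.09 in knockdown and 0.61 ± 0.13 in controls (difference −1.49 ± 0.16, adjusted p = 1.7e-06, edgeR), with knockdown levels of 37.5, 38, 41.6, 48.4 and 37.7 CPM in neurites and 72.4, 84.8, 75.4 and 67.6 in soma. PDE9A, a phosphodiesterase of cyclic GMP, stood at 60.6, 44.6, 52.8, 58.6 and 56.7 and 148, 140.4, 138 and 114 CPM in knockdown, a ratio of −1.28 ± 0.07 against −0.10 ± 0.08 in controls (difference −1.18 ± 0.11, adjusted p = 6.1e-08). COL27A1 (−1.56 ± 0.28), GNG8 (−1.52 ± 0.21), PTPRQ (−1.40 ± 0.24), ACSM6 (−1.26 ± 0.23), CEP112 (−1.25 ± 0.23), MC1R (−1.18 ± 0.17), PMEL (−1.15 ± 0.16) and UNC5A (−1.12 ± 0.19) were the other 8. By list, to be read against 5.8% of all genes upward and 4.66% downward, voltage-gated channels gave 16 upward and 0 downward of 47, with medians of 0.00 in knockdown and −0.26 in controls; KCND3 (0.85 ± 0.11) was among them. Presynaptic genes gave 13 and 1 of 51, postsynaptic genes 12 and 1 of 40, motors 11 and 0 of 42 and neuronal transcription factors 10 and 1 of 41. Ribosomal proteins, strongly raised in both arms (medians 1.76 and 1.55), gave 5 and 0. At an unadjusted p under 0.05 in edgeR the downward counts of 0 became 2 for channels and 2 for motors and remained 0 for ribosomal proteins and cholesterol synthesis, and DESeq2 and limma-voom gave 0 for all 4 lists. Under library sizes the upward counts fell to 3 for channels, 0 for presynaptic genes, 1 for postsynaptic genes, 3 for motors, 2 for transcription factors, 0 for ribosomal proteins, 2 for cholesterol synthesis and 0 for mitochondrially encoded genes, with the sign of each list's median difference unchanged.

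SnoRNAs differed between the 2 arms in one direction. Of 107 that passed the filter in the fit of 19 libraries 28 had a lower ratio in knockdown than in controls and 0 a higher one. The upward count was 0 also at an unadjusted p under 0.05 in edgeR, with DESeq2 and with limma-voom. Over all genes 4.66% were called downward and 5.8% upward. Median ratios of the 107 were −1.68 in knockdown and −0.74 in controls. SNORD3A had −1.82 ± 0.34 in knockdown and 0.31 ± 0.32 in controls (difference −2.13 ± 0.47, adjusted p = 0.004, edgeR). SNORD116-17 had −3.80 ± 0.37 and −1.37 ± 0.29. The control neurite libraries varied widely, with snoRNA counts at 0.0606, 0.0866, 0.245, 0.161 and 0.123% of the total in replicates 1, 2, 4, 5 and 6, and the pair with most 7SL RNA, 4 and 5, also held most snoRNA. Knockdown neurites held 0.0458, 0.0569, 0.0315, 0.0276 and 0.034%, below all control neurite and all control soma libraries (0.198 to 0.231%). Leaving out each of the 19 libraries in turn gave 19 to 40 snoRNAs with a lower ratio and 0 with a higher one, and library sizes gave 27. With no filter 41 of 526 were lower and 0 higher, with a median difference of −0.52 instead of −1.02. The part of RNA from cell bodies in single control neurite libraries was not tested.

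**Figure D5:**
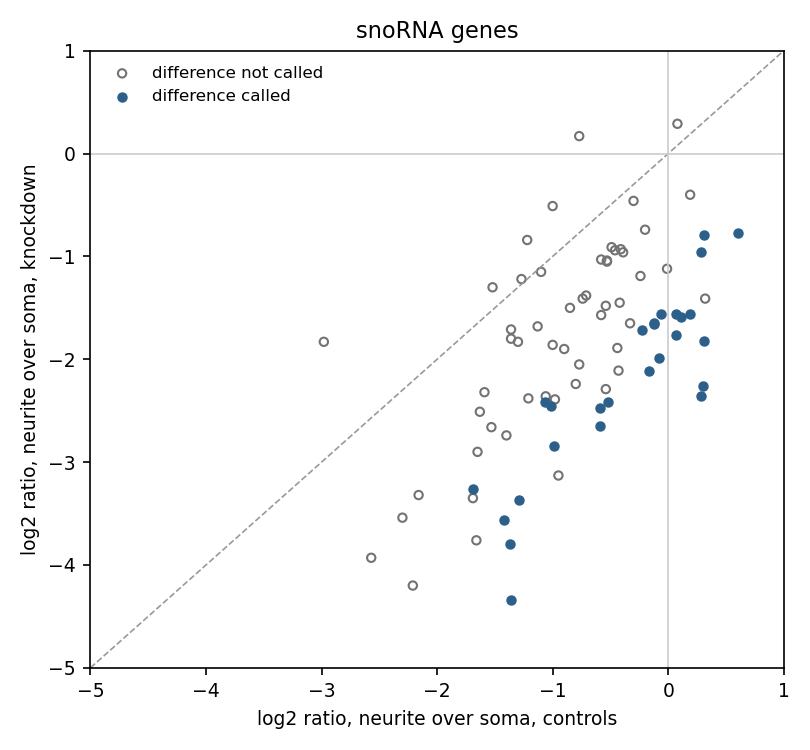
Log2 ratio of neurite over soma for 81 snoRNA genes in knockdown (vertical) and controls (horizontal), with equal ratios on the dashed line. Filled points are the 27 with a called difference, and all of them lie below the line.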

How the data were processed

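RNA from neurite and soma fractions was sequenced after total RNA library preparation. Per the submitters' processing notes, the authors used STAR 2.7.11b, featureCounts of Subread 2.0.6 and hg38. The strand setting and the release of the annotation were not given in the sources used here, so overlapping and antisense genes cannot be told apart. The deposited table holds expected counts for 63241 genes; 77.9% of nonzero values in the knockdown libraries were whole within 0.005. Values were rounded, and libraries under 100000 counts were left out; 24 columns of the hnRNPA1 experiment were not used.

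Gene IDs were named from a list matching 62666 IDs, and positions come from GENCODE 29 (58228 matched). Neurites were compared with soma by edgeR 4.0.16 (R 4.3.3): TMM, filterByExpr, the quasi-likelihood test and Benjamini-Hochberg adjustment over all genes. The 19-library fit tested the change of the ratio with knockdown. Shares of counts were compared by exact permutation. In simulated data 200 of 20345 genes were changed, in each of 5 draws. There 67, 90.7 and 100% of genes changed 1.5-, 2- and 4-fold were recovered, and 6.86% of calls were false. In the measured libraries 60.9% of genes were called, so these rates need not hold for them.

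Named genes were TARDBP, the 15 largest and 15 smallest protein-coding ratios (mean of at least 5 CPM in the higher fraction, called, not overlapping), the 10 most abundant genes of each fraction, up to 4 members of each list's main direction and 2 of the other, whole lists of TDP-43 targets, disease genes and nuclear RNAs, the 10 largest and smallest differences, and 6 noncoding genes. Others were chosen after their values were seen. The members and the 36 lists were chosen with earlier results of these data known. Alternatives were library sizes, RLE size factors, DESeq2 1.42.0, limma-voom (limma 3.58.1), no filter, protein-coding genes alone, removal of 7SL and ribosomal RNA, a replicate block and leaving out libraries. Removal of 7SL RNA covered RN7SL1 and RN7SL2 and left its pseudogenes in. Some genes and sequences are not reported here.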

Additional observations from a re-analysis of the deposited data

Results flagged for a closer look

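Of 72 groups of libraries examined, 5 held a library far from the others of its group; chance gives about 1 in 20 groups. Neurite library 3 held 4.07% of its counts in mitochondrially encoded messages, above the other neurite libraries. Soma library 4 held 0.0314% in MALAT1 and NEAT1, below the other soma libraries. BICD2 stood at 841 CPM in neurite library 1, the lowest of its group, FOS at 7.7 CPM in soma library 1 and ASNS at 11.7 CPM in soma library 1, each the highest soma value.

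The ratio of neurite over soma differed between knockdown and controls, by the test of the difference itself, for 20 protein-coding genes chosen by size. On the log2 scale it was higher in knockdown by 2.05 for NKD2, 1.52 for PHF2, 1.37 for TRAK2, 1.23 for MLYCD, 1.22 for MASP2, 1.18 for PDZRN4, 1.16 for ICAM5, 1.11 for BICD2 and 1.08 for HSPG2 and SLC6A17. It was lower in knockdown for COL27A1 (−1.56), GNG8 (−1.52), MVP (−1.49), PTPRQ (−1.40), ACSM6 (−1.26), CEP112 (−1.25), PDE9A (−1.18), MC1R (−1.18), PMEL (−1.15) and UNC5A (−1.12).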

How the results depend on the processing

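Scaling by library sizes alone, which shifts the median ratio by −0.53, gave 1952 genes higher and 13074 lower, and for the difference from controls 335 calls, 132 upward and 203 downward. It turned the signs of RPS10 (−0.03), SREBF2 (−0.02), TUG1 (−0.32), SLC6A17 (−0.01), KIF5A (−0.45), TUBA4A (−0.36), INSR (−0.52) and SYT7 (−0.49). Of 185 named genes it ended the call of another 13 ratios without a change of sign, and of 33 of the 63 called differences. In a fit of protein-coding genes alone 981 differences were upward and 643 downward, beside 1181 and 440 for the same type in the fit of all genes; the cause was not tested. INSR had −0.03 and SYT7 −0.01 there, and −0.06 and −0.03 without the filter. Leaving out each library in turn gave 11453 to 12300 calls (5837 to 6110 higher, 5576 to 6268 lower), and 1648 to 2471 differences (889 to 1369 upward, 759 to 1102 downward). MALAT1, which did not pass, ran from −0.12 to 0.01 and had 0.01 without neurite library 4 and 0.0 without neurite library 5. UBQLN2, also not passing, ran from −0.05 to 0.03, with 0.0 without neurite library 1 or 5 and 0.03 without soma library 1.

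For shares the difference in percentage points ran from 2.07 to 2.37 for mitochondrially encoded messages, 1.3 to 1.64 for ribosomal proteins, 4.91 to 9.19 for 7SL RNA, −0.0145 to −0.0124 for MALAT1 with NEAT1, −0.503 to −0.173 for ribosomal RNA, −1.22 to −0.743 for long noncoding RNA and −0.0188 to −0.0132 for histones. Leaving out any library but neurite 4 or 5 raised the adjusted exact permutation p of the first 4 to between 0.05 and 0.0625, and so ended these calls; fewer libraries raise the smallest p possible. Long noncoding RNA passed without neurite library 5 (−1.22, adjusted exact permutation p 0.04). Histones kept their call without neurite library 4 only, and lost it without 7SL and ribosomal RNA in the denominator (−0.00895); the cause was not tested.

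Samples with the same replicate number correlated in their deviations at 0.11, 0.05, 0.05 and 0.1, and pairs with different numbers at −0.14 to 0.05. For each soma sample the neurite sample of the same number had the highest value, with neurite 3 and 4 tied for soma 3. Whether a number marks a shared culture is not given in the labels and was not tested. With the replicate block 11985 genes were called (6020 higher, 5965 lower) and 2208 differences (1381 upward, 827 downward). For shares, differences within replicate numbers 1 to 4, a block chosen after seeing the data, had means of 2.29 percentage points for mitochondrially encoded messages, 1.48 for ribosomal proteins, 9.19 for 7SL RNA, −0.0137 for MALAT1 with NEAT1 and −0.0135 for histones. All 4 pairs had the same sign in these 5 shares, with an exact 2-sided sign-flip p of 0.125, the smallest that 4 pairs allow (0.146 adjusted), so this test cannot pass. DESeq2 gave 11597 calls, limma-voom 12420, RLE size factors 12370 and no filter 16563. The neurite libraries, the shallower ones, limit what can be detected for low genes.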
